A study of Mus musculus with 12 samples.

Results

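The AP-1 and BATF family genes were examined for BATF peaks in T helper cells. The 10 genes, chosen by name, were *Batf*, *Batf2*, *Batf3*, *Jun*, *Junb*, *Jund*, *Fos*, *Fosb*, *Fosl1* and *Fosl2*, out of 21000 protein-coding genes with a curated RefSeq transcript. A peak was counted for a gene when its summit, the position of highest enrichment, lay in the gene body or within 50 kb of it. By this rule 8 of the 5873 peak regions of the series belonged to the family.

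The study immunoprecipitated BATF from chromatin of Th9 and Th17 cells, grown from naive CD4+ T cells of C57BL6/J mice, to compare where BATF binds in the 2 subsets. Th9 cultures received IL-4, TGF-β and IL-2 with an antibody to IFN-γ, and Th17 cultures received IL-6, TGF-β, IL-23 and IL-1β with antibodies to IFN-γ, IL-4 and IL-2. Both were collected at the end of culture without restimulation, and no genotype other than the strain is labelled. There were 2 BATF libraries per cell type, Th9 libraries 1 and 2 and Th17 libraries 3 and 4, each matched to input and IgG libraries that carry its number. Nothing in the labels says whether they came from separate cultures or animals, so the spread between them may be technical.

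The family encodes bZIP proteins, which pair through a leucine zipper and touch DNA with an adjoining basic region. JUN proteins pair with each other or with FOS proteins, and the dimers bind the AP-1 site, TGACTCA or TGAGTCA. BATF proteins lack a transactivation domain of their own, pair with JUN proteins, and in T cells join IRF4 or IRF8 on composite sites. Some AP-1 genes, such as *Jun*, are known to be regulated by AP-1 dimers. The lists show where peaks were called and hold no expression.

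Peaks called against input and IgG together numbered 1709 and 241 for Th9 (libraries 1 and 2) and 4111 and 199 for Th17 (libraries 3 and 4). The study's methods give 1 approximate number of reads for all libraries, and the lists give no read counts, so the depth of single libraries could not be compared. Absence of a peak means that a site did not reach the threshold there, not that BATF was absent. The 8 family peaks came from the libraries with the longest lists, 2 from Th9 library 1 and 6 from Th17 library 3, and Th9 library 2 and Th17 library 4 had 0. Every result on the family therefore rests on 1 library per cell type.

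Markers of the cell types gave a check of the labels, although peaks are not expression. Of 8 genes that mark Th17 cells, 4 had a peak in Th9 cells and 6 in Th17 cells (50% and 75%, against 10.6% and 22.5% of all genes). All 4 in Th9 cells came from library 1, from 3 peaks, where 9.43% of all genes had a peak, and 0 from library 2. *Il17a* and *Il17f*, counted from the same peak, had a fold enrichment of 7.05 (−log10 q 6.42) in Th9 library 1, 6.78 (−log10 q 6) in Th17 library 3 and 10.3 (−log10 q 12.7) in Th17 library 4. *Il22* had 6.54 (−log10 q 5.46) in Th9 library 1 and 8.47 (−log10 q 9.3) in Th17 library 3. *Il23r*, another Th17 marker, had a peak in Th9 library 1 alone, at 5.03 (−log10 q 3.15). Values of different libraries are not on a common scale. Of 6 genes listed as Th9 markers, 0 had a peak in Th9 library 1. *Il9* and *Irf4* had one in Th9 library 2, against 1.74% of all genes, and 2 others had one in a Th17 library. The study describes IRF4 as a factor shared by Th2, Th9 and Th17 cells, so *Irf4* is not particular to Th9 cells. With so few genes, 0 of 6 is not far from the 9.43% of all genes. Without Th9 library 1, 0 family genes had a Th9 peak, against 1.74% of all genes in Th9 library 2. Of 5 markers of B cells, myeloid cells and CD8 T cells, 0 had a peak in any library, against 29.2% of all genes, and 5 genes are too few to read much from.

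The sequences of 4 of the family peaks are shown as examples with and without an AP-1 site. They are 2 of the 4 peaks of Th17 library 3 that contain the site, picked for it, and both peaks of Th9 library 1, which lack it, as do 2 of the 6 peaks of Th17 library 3. They were read from the plus strand of GRCm38 (mm10), 5′ to 3′, and capitals mark AP-1 sites. No exon of any annotated transcript touched them. The first is downstream of *Batf* at chr12:85730013-85730270 and the second in intron 2 of *Batf3* at chr1:191104535-191104783, both from Th17 library 3. The last ones are the peak downstream of *Batf3* at chr1:191115026-191115281 and the peak upstream of *Jun* at chr4:95077628-95077830, from Th9 library 1.
*Batf*, Th17 library 3: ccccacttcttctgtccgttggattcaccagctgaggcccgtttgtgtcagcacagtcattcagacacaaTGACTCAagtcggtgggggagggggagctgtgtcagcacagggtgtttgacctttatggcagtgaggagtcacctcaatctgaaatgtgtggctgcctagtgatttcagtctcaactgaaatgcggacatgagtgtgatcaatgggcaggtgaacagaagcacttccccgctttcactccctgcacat
*Batf3*, Th17 library 3: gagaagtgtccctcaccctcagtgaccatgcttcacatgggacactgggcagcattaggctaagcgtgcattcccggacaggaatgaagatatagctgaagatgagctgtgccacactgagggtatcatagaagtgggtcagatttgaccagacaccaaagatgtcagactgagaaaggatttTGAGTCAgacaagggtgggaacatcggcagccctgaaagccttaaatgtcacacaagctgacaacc
*Batf3*, Th9 library 1: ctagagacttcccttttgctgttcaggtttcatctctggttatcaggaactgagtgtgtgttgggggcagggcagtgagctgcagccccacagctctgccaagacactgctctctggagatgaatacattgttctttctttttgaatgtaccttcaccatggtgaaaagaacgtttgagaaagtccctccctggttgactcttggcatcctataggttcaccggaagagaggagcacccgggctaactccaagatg
*Jun*, Th9 library 1: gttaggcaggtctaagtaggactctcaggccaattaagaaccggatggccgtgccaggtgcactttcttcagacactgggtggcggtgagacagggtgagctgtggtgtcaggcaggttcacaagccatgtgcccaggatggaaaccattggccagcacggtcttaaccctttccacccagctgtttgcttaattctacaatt

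In Th9 cells, *Batf3* and *Jun* had a peak, 2 of the 10 genes. Among all protein-coding genes, 10.6% had one in either Th9 library, 9.43% in library 1 and 1.74% in library 2. In Th17 cells, *Batf*, *Batf3*, *Fos*, *Fosb* and *Fosl1* had a peak, 5 of the 10 genes, against 22.5% of all genes in either library, 22.2% in the first of them and 1.23% in the other. Over the 4 libraries 6 of the 10 genes had a peak, against 29.2% of all genes. *Batf2*, *Junb*, *Jund* and *Fosl2* had none in any of the 12 lists. The member genes are short, with a median length of 7694 bp against 16690.5 bp for all genes, so the median window of a member was shorter than that of other genes. With 10 genes, 1 gene moves a share by 10 points, and whether the family differs from other genes was not tested.

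**Figure D1:**
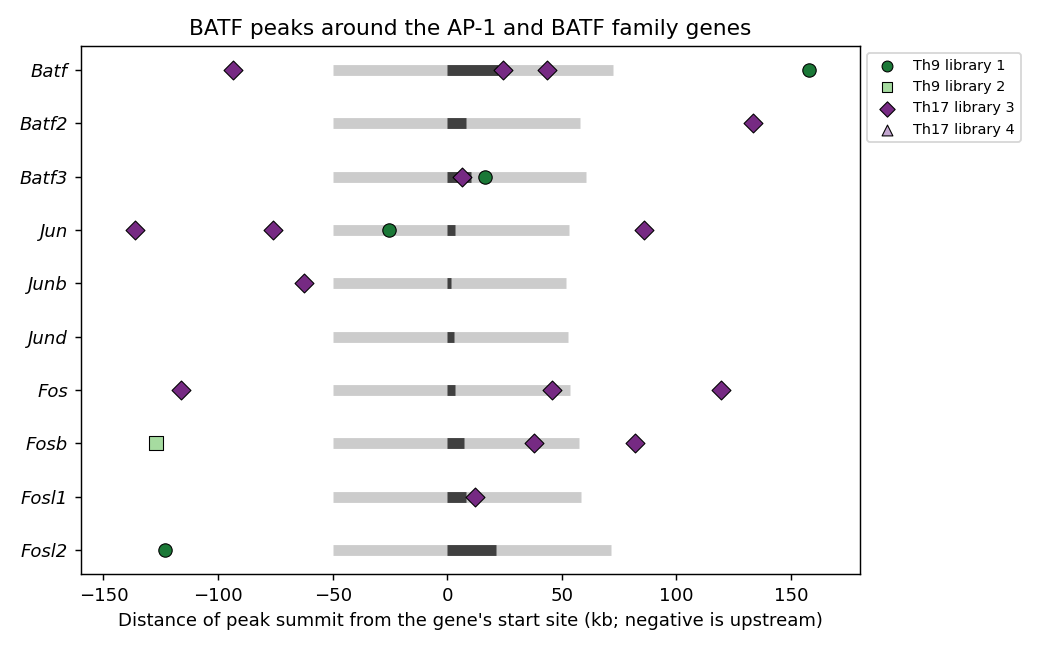
Summits of BATF peaks within 150 kb of each gene body, as distance in kb from the gene's start site, with the gene body in dark grey, the 50 kb window in light grey and 1 symbol per peak and library. Inside the windows lie 6 peaks of Th17 library 3 and 2 of Th9 library 1. The peak upstream of *Jdp2*, between *Fos* and *Batf*, is drawn for both genes.

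The counts in the longer list of each cell type depended on the window. Within 10 kb of the gene body, 1 of the 10 genes had a peak in Th9 library 1 (4.67% of all genes) and 3 in Th17 library 3 (10.4% of all genes). Within 100 kb the counts were 2, as within 50 kb, in the Th9 list (15.1% of all genes) and 7 in the Th17 list (34.4% of all genes), where *Jun* and *Junb* were added. The farthest peak inside the 50 kb limit lay 42.4 kb from *Fos*, and the nearest outside it lay 62.6 kb from *Junb*. That *Junb* peak was weak, at a fold enrichment of 4.1 (−log10 q 2.28).

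**Figure D2:**
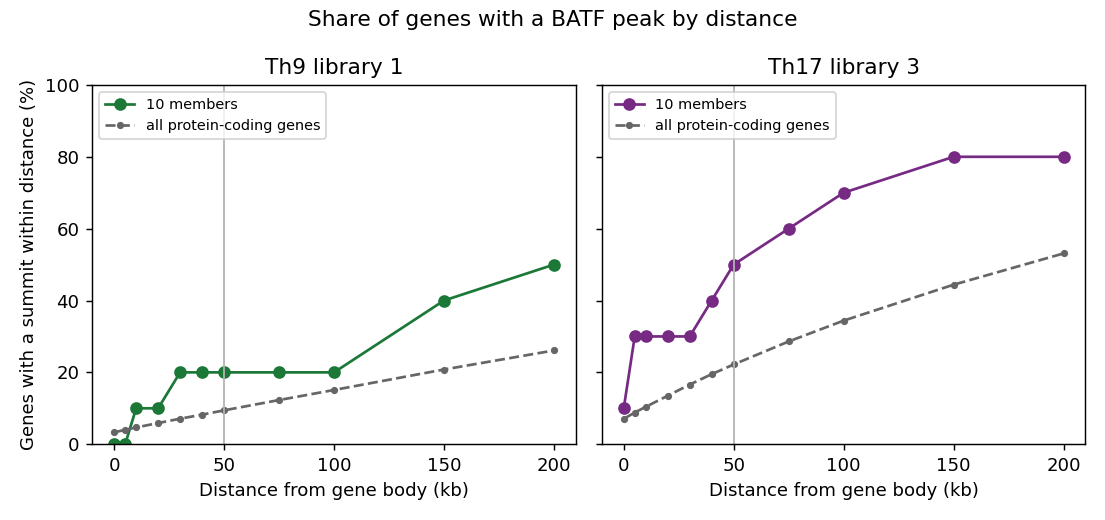
Percentage of genes with a summit within a given distance in kb of the gene body, for the 10 members (solid line) and all protein-coding genes (dashed line), in Th9 library 1 and Th17 library 3. At 50 kb (vertical line) the members reach 20% and 50%, against 9.43% and 22.2% of all genes.

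The median distance from a member to the nearest summit was 232 kb in Th9 library 1, against 497 kb over all genes, and 52.5 kb in Th17 library 3, against 181 kb. In the short lists the members were not consistently nearer. The medians were 4890 kb in Th9 library 2, against 3637 kb over all genes, and 4352 kb in Th17 library 4, against 5174 kb.

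Among the BATF genes, *Batf* itself had 2 peaks, both in Th17 library 3 and both beyond its 3' end. *Batf* lies on the plus strand at chr12:85686720-85709087. The nearer peak, at chr12:85710944-85711153, had its summit 24.3 kb from the start site and 1.94 kb past the end of the gene, at a fold enrichment over local background of 6.21 (−log10 q 5.02). The farther one, the first sequence shown, had its summit 43.4 kb from the start site, at a fold enrichment of 8.47 (−log10 q 9.3), with the highest −log10 q among the 6 family peaks of its library. Its summit was nearer to the start site of *Flvcr2*, at 16386 bp, than to that of *Batf*. In the other 3 libraries no summit lay within 50 kb of *Batf*, and in Th9 library 1 the nearest was 136 kb from the gene.

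*Batf3*, best known for its role in dendritic cell development, was the 1 gene with a peak in both cell types, but at different places. The gene lies on the plus strand at chr1:191098414-191108943. In Th17 library 3 the peak was in intron 2, with its summit 6253 bp from the start site, at a fold enrichment of 7.68 (−log10 q 8.14). In Th9 library 1 it was 6170 bp past the 3' end, with its summit 16699 bp from the start site, at a fold enrichment of 7.05 (−log10 q 6.42). The values depended on the control. Against input alone the Th17 peak had 5.49 (−log10 q 5.08) and the Th9 peak 6.32 (−log10 q 5.47). Against IgG alone they had 8.47 (−log10 q 9.29) and 7.05 (−log10 q 6.4). The intron peak held an AP-1 site and the downstream peak did not. Over the 4 libraries, the genes most like *Batf3* in highest fold enrichment were *Snd1*, *Aff3* and *1700057G04Rik*, at city-block distances of 0.195, 0.345 and 0.424. Of the 21000 genes, 536 others also had peaks in both long lists and none in the short ones. *Batf2* had no summit nearer than 125 kb in any library.

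Among the JUN genes, *Jun* had 1 peak, in Th9 library 1. The gene lies on the minus strand at chr4:95049036-95052222, and the peak at chr4:95077628-95077830 had its summit 25.4 kb upstream, with no other protein-coding gene within 50 kb. Its fold enrichment was 6.04 (−log10 q 4.6), the lower of the 2 family peaks of its library, and 69.3% of the list lay at or below that −log10 q. A minimum −log10 q of 5 removed it. Against input alone, Th17 library 3 had a further peak at chr4:95051165-95051395, in an untranslated part of the single *Jun* exon, with its summit 840 bp downstream of the start site, at a fold enrichment of 5.08 (−log10 q 3.3). It was not called against IgG or against both controls. *Junb* and *Jund*, the other JUN proteins, had no peak, and the nearest summit to *Jund* in any library was 626 kb away.

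Among the FOS genes, *Fos*, an immediate early gene, had 1 peak in Th17 library 3. It lies on the plus strand at chr12:85473890-85477274, and the summit was 45.8 kb from its start site, at a fold enrichment of 7.34 (−log10 q 7.04). *Fosb*, on the minus strand at chr7:19302696-19310045, had a peak of the same library 37.7 kb from its start site at a fold enrichment of 6.21 (−log10 q 5.02). That summit was nearer to the start site of *Vasp*, and 6 other protein-coding genes lay within 50 kb. *Fosl1*, on the plus strand at chr19:5447698-5455938, had a peak at chr19:5459708-5459902 at a fold enrichment of 6.15 (−log10 q 5.16). Its summit was 709 bp from the start site of *Fibp*, 10 other protein-coding genes lay within 50 kb, and it was not called against IgG alone. When a peak was given to a member only if no other protein-coding start site was nearer, *Fosb* and *Fosl1* dropped out. Under that rule 3 genes were left in Th17 cells, and the share of all genes was not counted. *Fosl2* had no summit within 50 kb, and the nearest in any library was 123 kb from the gene.

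The peaks beside *Fos* and *Batf* belong to the same stretch of chromosome 12. From the start of *Fos* to the end of *Batf* it spans 235 kb, with *Jdp2*, another bZIP gene, between them. From 50 kb before *Fos* to 50 kb past *Batf*, Th17 library 3 had 4 peaks and the other 3 libraries had 0. The strongest was none of the family peaks. It lay at chr12:85593082-85593298, with its summit at −5.88 kb from the *Jdp2* start site (negative is upstream) and 93.5 kb from *Batf*, with a fold enrichment of 15.2, a −log10 q of 25.5 and 1 AP-1 site within 100 bp of its summit. *Jdp2* is named here after its values were seen.

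**Figure D3:**
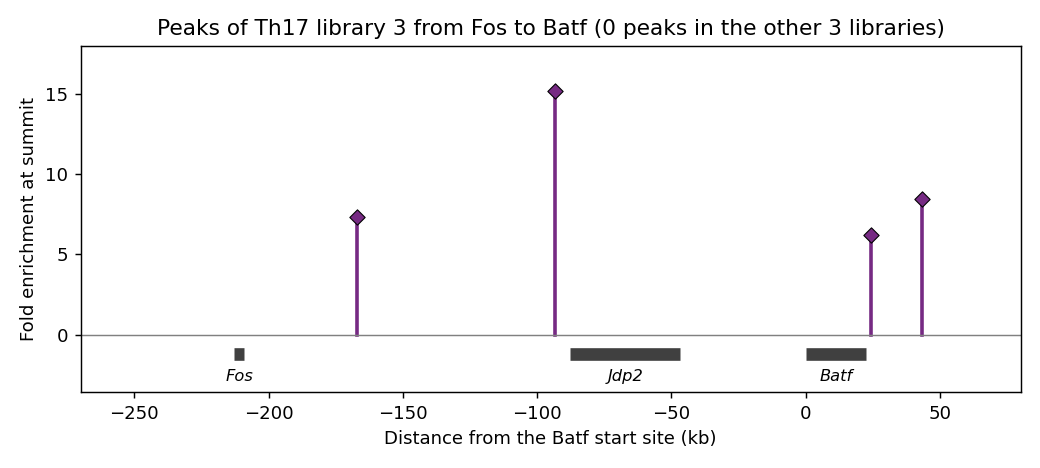
Fold enrichment at the summit of each BATF peak from *Fos* to *Batf*, against distance in kb from the *Batf* start site, with gene bodies below the axis. All 4 peaks are from Th17 library 3, and the highest, at 15.2, lies just upstream of *Jdp2*.

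The family peaks were of middling to high rank in their own lists. In Th17 library 3 the −log10 q ran from 5.02 to 9.3, against a median of 4.12 over all its peaks, and the farther *Batf* peak ranked 426 of 4111. In Th9 library 1 the *Batf3* peak ranked 261 and the *Jun* peak 526 of 1709, where the median −log10 q was 3.82. Many peaks shared a value. The nearer *Batf* peak and the *Fosb* peak had the same fold enrichment and −log10 q as 383 peaks of their list, themselves included, so small differences in rank carry little. No family peak was among the 199 strongest of its library.

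**Figure D4:**
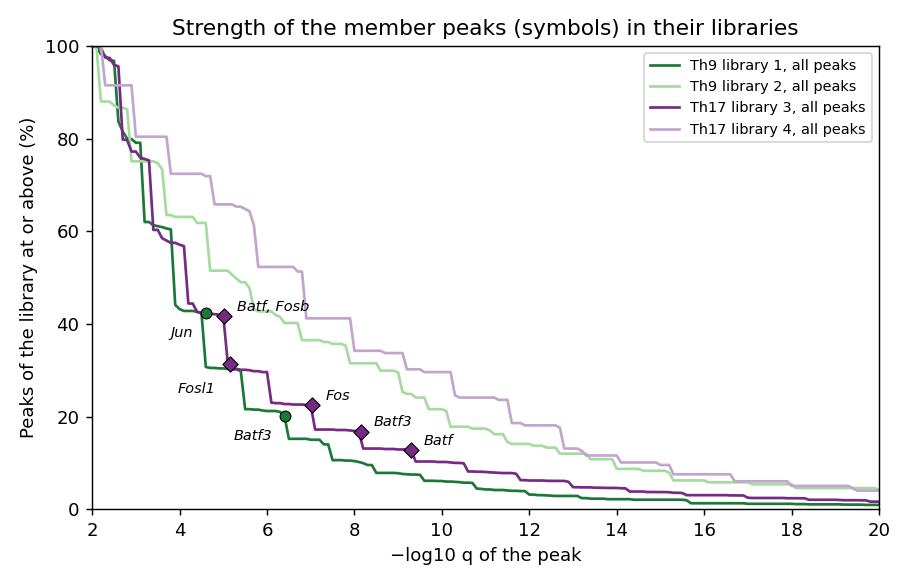
Percentage of each library's peaks at or above a given −log10 q (lines), with the 8 member peaks placed at their own values (symbols). The member peaks of Th17 library 3 lie between 5.02 and 9.3 and those of Th9 library 1 at 4.6 and 6.42.

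An AP-1 site lay within 100 bp of the summit in 4 of the 8 family regions (50%, exact 95% binomial interval 15.7% to 84.3%, counting error only). Over all 5873 regions of the series the share was 17% (16% to 18%), and in equally long windows placed 2000 bp away on both sides it was 3.42%. Within 50 bp of the summit, 2 of 8 family regions had a site (25%, interval 3.19% to 65.1%) against 12% of all regions, and of the 4 family regions within 10 kb of a gene body 1 had a site within 100 bp. The 4 regions with a site within 100 bp were all peaks of Th17 library 3, those beside *Batf* and *Batf3* among them, and 0 of the 2 peaks of Th9 library 1 had a site. Over all peaks the share was 14.9% in Th9 library 1 and 18.8% in Th17 library 3, and it was higher in the short lists, at 31.1% in Th9 library 2 and 40.2% in Th17 library 4. Without the 2 peaks of Th9 library 1 the family share was 4 of 6 (66.7%). Stronger peaks held the site more often in the series as a whole. At a −log10 q from 4 to 6, 1 of 4 family regions had a site against 14.5% of all regions, and from 6 to 10, 3 of 4 against 30.9%. Whether the family regions differ from others of their strength was not tested.

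In the sequences shown, the centre of the site lay 67 bp before the summit in the *Batf* peak, with the letters TGACTCA, and 54 bp after it in the *Batf3* peak, with TGAGTCA. The other 2 family peaks with a site had one within 50 bp of the summit.

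Other motifs were searched on both strands in the same windows. The CRE, TGACGTCA, was in 0 of the 8 family regions and in 0.221% of all regions. A composite bZIP:IRF site, taken as GAAA directly before an AP-1 site or TTTC with 4 bases between, was in 0 of 8 and in 1.36% of all regions. The STAT motif TTCNNNGAA was in 0 of 8 and in 8.87% of all regions. With a count of 0 of 8 the interval reaches 36.9%, so any share below that lies inside it. These counts therefore cannot tell family regions from all regions. The looser TGANTCA, which includes the AP-1 site, was in the same number of family regions, 4 of 8, and in 20.7% of all regions.

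Away from the motif, 7 of the 8 family regions were intergenic and 1 was intronic, against 54.1% and 42.6% of all regions. The summits of 2 of 8, beside *Fosb* and *Fosl1*, lay within 2000 bp of a protein-coding start site, against 4.99% of all regions, and in both cases it was the start site of another gene. No summit lay within 2000 bp of a member's own start site in the lists called against both controls. The median GC content within 100 bp of the summit was 48.8% in family regions and 41.3% over all regions. Of the 10 genes, 8 had an entry in the RefSeq promoter table for this build. An AP-1 site was in 0 of these 8 promoters, against 5.2% of all 32851, and a CRE in 0 against 1.79%. With 8 promoters a count of 0 is not far from these shares, so it does not show that family promoters lack such sites. Only the letters given above were searched. The STAT motif was in 1 of the 8, that of *Batf3*, against 8.3%.

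No family region was called in more than 1 library. Over the series 4.73% of regions were called in 2 or more libraries. At the strength of the family peaks the share was low as well, 0.728% for a −log10 q from 4 to 6 and 6.49% from 6 to 10. The family peaks did not overlap a peak of any other library against input alone or IgG alone either. Within their own library, all 8 were called against input and 7 against IgG, with *Fosl1* the exception.

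Th9 libraries 1 and 2 had 2 and 0 family peaks, and Th17 libraries 3 and 4 had 6 and 0. The mean was 1 ± 1.41 (SD, n = 2) in Th9 cells and 3 ± 4.24 (SD, n = 2) in Th17 cells, so that the difference of 2 was smaller than the Th17 SD. For the count per library, an exact two-sided permutation test gave p = 1, and the smallest p that 2 libraries against 2 allow is 0.333. As a share of each library's peaks, the family peaks made up 0.117% in Th9 library 1 and 0.146% in Th17 library 3 (exact permutation p = 1 over the 4 libraries). Without Th9 library 1 the difference was 3. Without Th17 library 3 it was −1, and no family gene had a Th17 peak, against 1.23% of all genes in Th17 library 4.

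Related genes were counted by the same rule. Of 23 other bZIP genes, 2 had a peak in Th9 cells (8.7%, against 10.6% of all genes) and 6 in Th17 cells (26.1%, against 22.5%), close to the shares of all genes, and 0 had one in both. Of 15 inducers, kinases and partners of AP-1, 4 had a peak in Th9 cells (26.7%) and 6 in Th17 cells (40%), above the same shares of all genes. Their median length of 39671 bp, against 16690.5 bp for all genes, gave them longer windows, and the part of length in these counts was not tested. *Mapk8*, which encodes JNK1, a kinase of the JUN protein, had peaks in both. Its peaks of Th9 library 1 and Th17 library 3 were intronic and overlapped, unlike those at *Batf3*. The fold enrichment was 7.53 for Th9 and 8.47 for Th17.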

How the data were processed

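BATF ChIP-seq peak lists of 4 BATF libraries, 2 of Th9 and 2 of Th17 cells, were used, 3 lists per library (input, IgG or both as control) and 12 in all. Per the submitters' processing notes, reads were trimmed with Trim Galore 0.4.3, aligned to mm10 with Bowtie2 and peaks called with MACS2 2.1.0. Peaks were called for each library separately, and per the study's methods duplicates were kept. For each peak the authors deposited the fold enrichment (a ratio to local background) together with −log10 of its p-value and of its q-value. The lowest −log10 q in any list was 2. The control is known only from the name of a list, since the peaks inside every list, those called against IgG included, carry names with the input alone.

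Lists called against both controls were used, with the single-control lists as a check. Genes were spans of curated transcripts of RefSeq release 108.20200622. Peaks sharing 1 bp were merged. Motifs were counted on both strands within 100 bp of the summit. All peaks fitted within the chromosome lengths of GRCm38. Genes named are the 10 members, listed genes with peaks in both cell types, and hosts or nearest genes of member peaks. The 3 genes most like a member with peaks in 2 or more libraries are also named. Outside these rules, *Jdp2* and the markers *Il9*, *Irf4* and *Il23r* are named. Members and lists were chosen with earlier results of these data known. Some items that these rules select are left out of the text. Counts of members are read beside the share of all genes and were not tested. The counting was tested on simulated data. Python 3.11.15, numpy 2.4.6, scipy 1.17.1, pysam 0.24.0 and matplotlib 3.10.9 were used.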

Additional observations from a re-analysis of the deposited data

How the results depend on the processing

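No paired analysis was possible because no number is common to both cell types. Labels give 1 and 2 to Th9 and 3 and 4 to Th17, and a shared number links a BATF library with its controls alone. Of 132 recalculated values, 1 changed sign and 19 moved, a count of genes or libraries by over 1.5 times or a share out of its binomial interval. These bounds leave out large changes, since the interval is wide. The 1.5-fold bound was not applied to the difference in peaks per library. It counted as moved at 0 and as reversed at −1 alone, so its values from 0.5 to 5 counted as the same. The AP-1 share of 50% was 25% within 50 bp of the summit and 25% for peaks within 10 kb. That difference, 2 as reported, was 0.5 with the nearest start site, 1 within 10 kb and 4.5 within 100 kb. GENCODE M21 genes, an alternative chosen after seeing the data, gave the counts reported. Of 60 values for single genes 9 moved, for *Jun*, *Junb*, *Fos*, *Fosb* and *Fosl1*. With a minimum −log10 q of 5, 1 gene had a Th9 peak. Within 10 kb, 1 gene had a Th9 peak and 3 a Th17 peak. With the nearest start site, 3 genes had a Th17 peak. With the 199 strongest peaks of each library, 0 genes had a peak in Th9 and 0 in Th17 cells and the difference in peaks per library was 0, with no region left for an AP-1 share. These settings remove peaks by construction. Under the minimum −log10 q, the nearest start site and the 199 strongest peaks, the share of all genes was not counted.

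Leaving out each library in turn gave 0 to 2 genes with a Th9 peak, 0 to 5 with a Th17 peak, a difference in peaks per library (Th17 minus Th9) from −1 to 5, an AP-1 share from 0% to 66.7%, and 0 regions called in 2 or more libraries. The lowest values came without Th17 library 3, apart from the Th9 count, which fell to 0 without Th9 library 1. The share of all genes with a peak was low in the libraries then left as well. It was 1.74% in Th9 library 2, against 9.43% in Th9 library 1. In Th17 library 4 it was 1.23%, against 22.2% in Th17 library 3. A library left alone in its cell type has no spread, so these values have no test. Read counts of single libraries were not used here, and the part of depth and list length in the absence of family peaks from Th9 library 2 and Th17 library 4 was not tested.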
